A study of Mus musculus with 2 samples.

Results

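The genes described here are 10 genes whose products mark or build the endothelium of blood and lymph vessels: Lyve1, Stab2, Vwf, Kdr, Tek, Tie1, Eng, Emcn, Pecam1 and Cdh5. They were taken by name, and every gene probe was used whose RefSeq accession belongs to a member. All 10 were found, through 11 probes and 20 spots per array, among 20651 genes matched to a probe. The samples were 2 mouse T cell cultures labelled Th9, the CD4 T helper type that makes IL-9, each measured on 1 single-colour Agilent array. One is labelled wild-type. The other came from mice with the genotype SIRT1flox/flox-CD4-Cre, that is, with Sirt1 alleles flanked by loxP sites and a Cre recombinase driven by Cd4, and its array is called the knockout-labelled array. Both cultures began from CD4+TCR+CD62Lhi CD44lo cells sorted out of spleen and lymph node, and were kept for 5 days by the description of each sample, or 5 to 6 by the protocol. The antibodies, anti-CD3 and anti-CD28, were at 2 µg/ml each, and the cytokines were IL-4 at 10 ng/ml, TGFβ1 at 2 ng/ml and human IL-2 at 100 U/ml. Cre driven by Cd4 acts in T cells. Neither the age, the strain nor the number of the mice is given in the labels. Each genotype has 1 array, so no difference could be checked against replicates or tested, and every direction rests on the label of the second array.

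Endothelial cells line every vessel. VE-cadherin (Cdh5) and PECAM1 hold neighbouring cells together, the receptor kinases encoded by Kdr and Tek receive vascular growth factors and angiopoietins, and endoglin (Eng) is a coreceptor for BMP ligands. In lymphoid organs the sinusoids and lymphatic sinuses carry the scavenger receptor stabilin 2 (Stab2) and the hyaluronan receptor LYVE1. Several of these genes are also used by blood cells: Pecam1 by many leukocytes and by platelets, Vwf by megakaryocytes, Lyve1 and Eng by some macrophages.

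RefSeq windows of 250 bases before the transcription start were on hand for 6 of the 10 genes, Emcn, Eng, Kdr, Stab2, Tek and Tie1. Those of 3 genes are shown because they stand for the 3 outcomes met below: Stab2 gave signal on both arrays, Eng on the knockout-labelled array alone and Tie1 on neither. Capitals mark GGAA or its reverse complement TTCC, the core bound by ETS factors such as ERG, FLI1 and ETS1, which are known regulators of endothelial genes. Only bases lying before every RefSeq model of the gene were kept, 154 for Stab2 and all 250 for the others. The windows, in GRCm38.p6 of RefSeq, are chr10:87008039-87008192 on the minus strand for Stab2, inside the span of the gene model Gm16271, and chr2:32646345-32646594 on the plus strand for Eng and chr4:118489850-118490099 on the minus strand for Tie1, neither of which overlaps a gene in that table.
Stab2: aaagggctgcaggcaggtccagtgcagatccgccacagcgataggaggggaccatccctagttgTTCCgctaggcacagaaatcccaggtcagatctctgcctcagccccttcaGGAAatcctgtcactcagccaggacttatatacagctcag
Eng: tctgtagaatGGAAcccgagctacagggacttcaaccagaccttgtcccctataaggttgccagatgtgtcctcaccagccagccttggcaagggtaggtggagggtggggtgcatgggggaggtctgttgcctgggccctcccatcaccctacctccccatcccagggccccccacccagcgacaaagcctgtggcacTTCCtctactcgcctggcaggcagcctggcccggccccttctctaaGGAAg
Tie1: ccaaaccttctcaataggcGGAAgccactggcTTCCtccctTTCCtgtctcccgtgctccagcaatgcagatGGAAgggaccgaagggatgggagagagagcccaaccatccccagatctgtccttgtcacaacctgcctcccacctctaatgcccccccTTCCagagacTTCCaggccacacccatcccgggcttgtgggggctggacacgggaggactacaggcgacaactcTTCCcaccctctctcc
The core occurred 2 times in the Stab2 stretch, 3 times in the Eng window and 7 times in the Tie1 window, counting both strands. It is common: 82.5% of the 32851 windows in the table hold it in their first 154 bases and 93.4% in 250. The longer motif AGGAAG, which contains the core, occurred 2 times for Eng and 1 time for Tie1, where 29.5% of all windows hold it, and was not found in the Stab2 stretch, where 18.6% do. The full 250 bases of Stab2, which run into RefSeq models of the gene, hold the core 6 times and the longer motif 1 time. With 3 windows of unlike length, chosen by outcome, whether the matches follow the array signal cannot be told.

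The arrays differed in how dim a signal they could resolve. A spot is called detected where the scanner software flags it as well above background, and the dimmest gene spot with that flag had a processed signal of 24.6 (wild-type) and 9.76 (knockout-labelled). A gene detected on the knockout-labelled array alone can therefore have a signal that the wild-type array would not have flagged. Of all matched genes, 62.7% were detected on both arrays, 8.56% on the knockout-labelled array only, 0.692% on the wild-type array only and 28% on neither. Differences are log2 of the processed signal, scaled to each array's 75th percentile, knockout minus wild-type, and the value after ± is the error the scanner software gives, which covers the spot and not the culture. The single Sirt1 probe differed by -0.08 ± 0.20, and whether it lies in the deleted part is not known, so it does not check the label.

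Of the 10 genes, 6 were detected on both arrays, 2 (Eng and Emcn) on the knockout-labelled array only and 2 (Tek and Tie1) on neither. Among the 6, Lyve1, Stab2 and Vwf were at least 2-fold higher on the knockout-labelled array and 0 were lower by as much, while 3 lay within 2-fold and 0 were past 3-fold. Over all 12958 genes measured on both arrays, 3.97% were at least 2-fold higher, 3.63% were lower by that much and 92.4% lay in between, with 0.656% past 3-fold upward and 0.864% past it downward. Among the 4916 of these genes whose mean signal lay within the span of the 6 members, 6.02% passed 2-fold upward and 3.38% downward. The median difference of the 6 was 1.06, against 0.00 for all genes measured on both arrays. These 6 are not all members, and the median says nothing of the other 4.

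**Figure D1:**
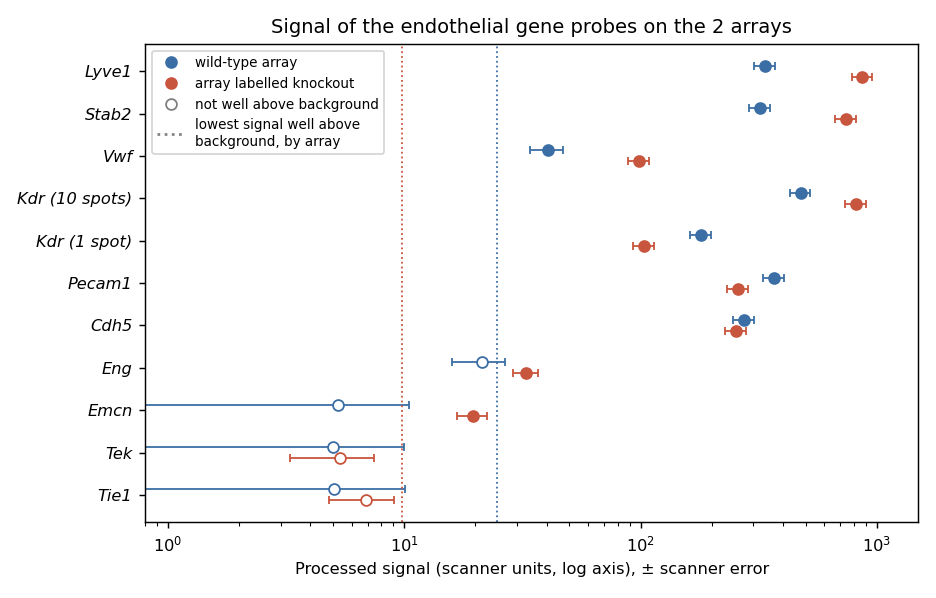
Processed signal of each of the 11 probes, wild-type beside knockout-labelled, on a log axis, with the scanner error as bars. Filled points were well above background and open points were not, and dotted lines give the dimmest signal with that flag on each array. Lyve1, Stab2 and Vwf lie clearly to the right on the knockout-labelled array, Cdh5 overlaps, and Tek and Tie1 lie at the floor of both arrays, where bars of about the size of the signal run off the axis.

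The receptors of sinusoidal and lymphatic endothelium differed most clearly. Lyve1 had a signal of 337 (wild-type) and 868 (knockout-labelled). It was 2.70-fold higher there, a difference of 1.43 ± 0.21, and stayed at least 2-fold higher in all 10 processing settings, from 1.1 to 1.61. Stab2, which clears hyaluronan and other waste from the blood, had signals of 320 and 739. It was 2.42-fold higher, a difference of 1.27 ± 0.21, and passed 2-fold in 9 of the 10 settings, the other giving 0.91. The differences were 6.96 and 6.2 times the scanner error. The 10 settings include the main one. They also include the mean over probes and outlier spots kept, which could not move Lyve1, Stab2 or Pecam1. Each of these genes had 1 probe and no flagged spot. In bulk RNA, more cells of a type and more RNA per cell cannot be told apart.

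Other genes of the same vessels were read from 2 lists. Of 9 matched lymphatic genes, 4 were measured on both arrays and all 4 were higher on the knockout-labelled array, from 0.76 for Itga9 to 1.43 for Lyve1. They included Nrp2, a coreceptor for lymphatic growth factors, at 0.97 ± 0.20 and Pdpn (podoplanin) at 0.87 ± 0.22, while Itga9 turned to -0.81 with normexp, a background correction described with Vwf below. Mmrn1 and Foxc2 were detected on the knockout-labelled array alone, Foxc2 with a signal of 19.9 there, below the wild-type floor of 24.6. Mmrn1, singled out after its values were seen, had signals of 21.2 and 90.5. It was at least 3.85-fold higher in the processed signal, with scanner error left out. Prox1, the factor that defines lymphatic identity, was detected on neither array, and nor were Flt4, the main lymphatic growth factor receptor, and Reln. Thus the defining transcription factor was not measured where the surface receptor Lyve1 was.

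Of 8 genes of sinusoids and scavenger endothelium, 7 were measured on both arrays, 5 at least 2-fold higher (Lyve1, Mrc1, Stab2, Cd209b and Stab1) and 1 at least 2-fold lower (Cd36, at -0.62 with the refitted background correction described with Vwf), with a median of 1.26. The 5 higher calls fell to 1 with normexp on all spots and 3 with the refitted one, and the median to 0.49 and 0.95. Mrc1, the mannose receptor, had signals of 273 and 684 and was 2.62-fold higher. Mrc1 and Lyve1 are among the genes of this list that macrophages also use, and macrophage markers differed in the same direction. Of 12 matched macrophage markers, 11 were measured on both arrays. Counted by their brightest probes, all 11 were higher on the knockout-labelled array, 5 of them at least 2-fold, with a median of 0.98. Csf1r was at 0.90 by its brightest probe, but at -0.57 and -0.13 by its other probes. With normexp on all spots C1qa, C1qb and Siglec1 turned to -0.06, -0.52 and -0.58, and the median was 1.02. Their summed level, each signal divided by its array's 75th percentile, was 28.1 (wild-type) and 60.6 (knockout-labelled), and only Cd163 was detected on neither. The part of macrophages in the values of Lyve1, Stab2 and the other genes of the sinusoid list was not tested.

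Vwf encodes von Willebrand factor, the adhesive protein that endothelium and platelets store and release. It was dim, with signals of 40.6 and 98.1, and was 2.53-fold higher on the knockout-labelled array, a log2 gap of 1.34 ± 0.27. Under limma's normexp background correction, fitted on all spots, the direction flipped, to -0.27. That correction was thrown by 4 wild-type spots darker than their own surroundings: it set the mean background there at -125, against 11.1 on the other array, and so lifted the median wild-type spot from 69 to 192. Refitted without those spots, a choice made after seeing the data, it gave a mean background of 11.4 on the wild-type array and a Vwf difference of 0.65. The uncorrected median pixel intensity of the Vwf spot was 85 (wild-type) and 136 (knockout-labelled), over local backgrounds of 19 and 17. Vwf was thus brighter on the knockout-labelled array in the raw pixels as well. Its fold depends on the background taken from it and on the offset of 50 that was added under normexp.

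**Figure D2:**
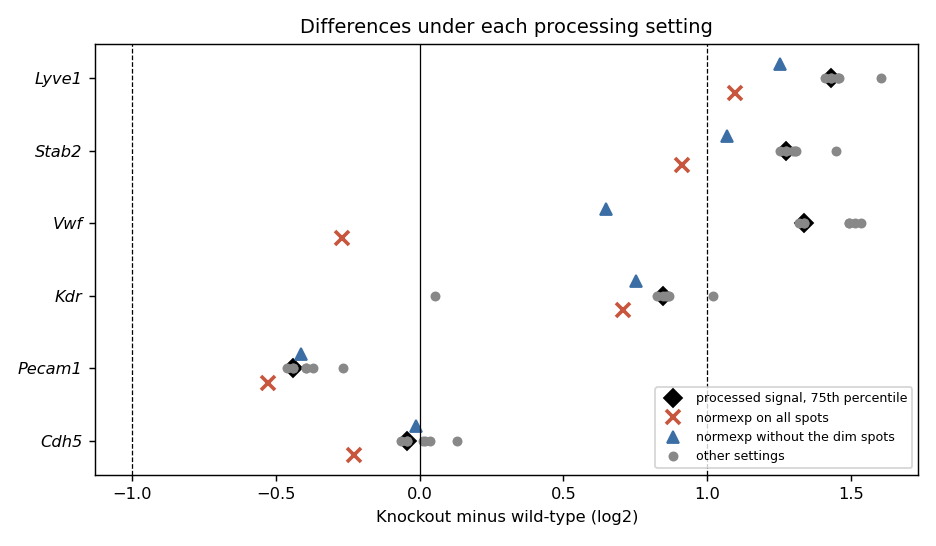
Difference (knockout minus wild-type, log2) of the 6 genes measured on both arrays in 10 processing settings. Black diamonds give the setting used in the text, red crosses normexp fitted on all spots, blue triangles the same without the 4 dark spots, grey points the others, and dashed lines mark 2-fold. Lyve1 stays above 1 throughout, Vwf crosses 0 only at the red cross, and the grey Kdr point near 0 is the mean of its 2 probes.

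Genes that travel with von Willebrand factor did not share one direction. Of 8 matched, 5 were measured on both arrays, 2 higher (Vwf and F8, both past 2-fold) and 3 lower, with a median of -0.08 that was 0.09 when arrays were centred on the median. F8, coagulation factor VIII, which VWF carries in plasma and which sinusoidal and lymphatic endothelium makes, had signals of 29.6 and 108 and was 3.82-fold higher, a difference of 1.93 ± 0.32 (0.93 with the refitted correction and -0.10 with the unrefitted one). Its other probe was detected on neither array. Rab27a, which handles the storage granules, differed by -0.36 ± 0.20, and Adamts13, the protease that trims VWF, was detected on neither array. Of 12 markers of megakaryocytes and platelets, the other makers of VWF, 4 were measured on both arrays (3 higher and 1 lower, with a median of 0.40) and 3 on the knockout-labelled array only. With the unrefitted correction that median turned to -0.59, with Pf4 at -0.20, Treml1 at -0.98 and Selp at -1.02, and with the refitted one it was 0.15. The defining glycoproteins Itga2b, Gp1bb, Gp5, Gp9 and Gp6 were detected on neither array. The summed level of the list was 0.977 (wild-type) and 1.64 (knockout-labelled). Its brightest gene, Clec1b, had signals of 292 and 578 by its brightest probe, a difference of 1.05, while the other probes gave 1.22 and 0.00. The part of platelets in the value of Vwf was not tested.

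Kdr, which encodes the main VEGF receptor of blood endothelium, gave opposite answers by its 2 probes. The brighter probe is spotted 10 times, and its signals ran from 457 to 504 around a median of 473 on the wild-type array and from 780 to 851 around 818 on the knockout-labelled array. The spots of the arrays did not overlap, with means of 475.6 ± 12.7 and 817.2 ± 20.1 (SD, n = 10 spots of 1 array each). The difference was 0.85 ± 0.20, or 1.80-fold higher, and the 10 pairs of spots ranged from 0.73 to 0.94. The second probe had 1 spot, with signals of 180 and 103, a difference of -0.74 ± 0.21 in the other direction. The gap of 1.59 between the probes stood well above the SD of 0.057 over the 10 pairs of spots. The sources used here do not give the positions of the probes. Such a gap was uncommon: of 2902 genes with several probes measured on both arrays, 79 (2.72%) had one at least as wide, and the median gap was 0.33. The mean of the 2 Kdr probes was 0.05, so no direction is given for Kdr as a whole.

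**Figure D3:**
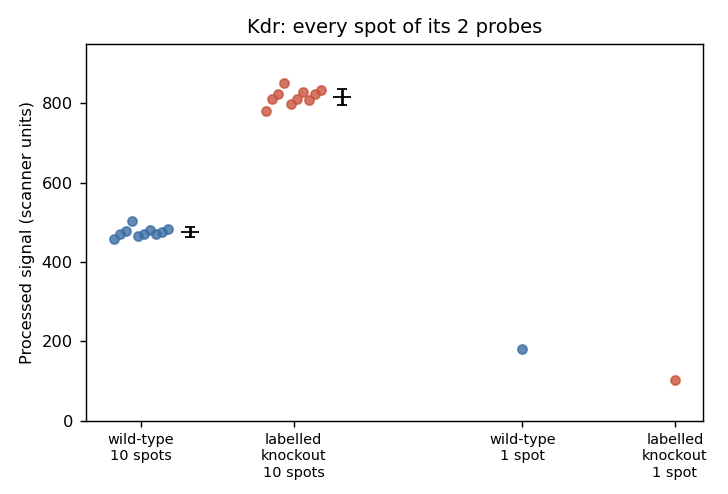
Processed signal of every Kdr spot on the wild-type array and the knockout-labelled array, for the probe with 10 spots and the probe with 1 spot. Black bars give the mean ± SD over the 10 spots of an array, which shows spotting noise and not variation between cultures. The 10-spot probe is higher and the 1-spot probe lower on the knockout-labelled array.

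Other members of the VEGF pathway leaned higher on the knockout-labelled array. Of 10 genes, 7 were measured on both arrays, 6 higher and 1 lower, with 1 past 2-fold and a median of 0.81, Kdr counted by its 10-spot probe. Flt1, the decoy-like receptor for VEGF-A, had signals of 68.8 and 174 and was 2.65-fold higher. Pgf, a ligand of FLT1, was the lower one at -0.84, with signals of 26.5 and 14.1. Vegfc, the lymphatic ligand, singled out after its values were seen, had signals of 24.2 and 95.9 and was detected on the knockout-labelled array alone. It was at least 4.08-fold higher in the processed signal, with scanner error left out. With the unrefitted normexp correction the median of this list was 0.017, 0 genes were 2-fold higher and 1 was 2-fold lower, Pgf at -1.29. Vegfa and Vegfb turned to -0.37 and -0.77 with it.

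Tek and Tie1 encode TIE2, the angiopoietin receptor, and its partner TIE1. Tek had signals of 4.98 (wild-type) and 5.37 (knockout-labelled), and Tie1 had 5.05 and 6.90. All 4 values lay below the dimmest signal called detected, and negative control spots had medians of 5.13 and 2.08. Neither gene was therefore measured, and no fold is given. Their partners were measured in part. Angpt2, the angiopoietin that endothelium itself releases, had signals of 59.8 and 172 and was 3.01-fold higher, a difference of 1.59 ± 0.24. Ptprb, the phosphatase that restrains TIE2, had signals of 81 and 232 and was 3.0-fold higher by its brighter probe, the other being detected on neither array. Svep1, a matrix protein that binds TIE1, was 2.15-fold higher at 1.1 ± 0.23. The refitted correction put these 3 at 0.95, 1.09 and 0.68, and the unrefitted one at 0.16, 0.37 and -0.0024. In the main scaling these 3 genes were thus brighter on the knockout-labelled array, while the TIE receptors themselves were not detected on it. Of the other angiopoietins, Angpt4 was detected on neither array. Angpt1 was detected on the knockout-labelled array alone, with a signal of 12.7 there, below the wild-type floor of 24.6.

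Eng, the endoglin gene, was near the limit of detection. Its signal was 21.3 on the wild-type array, not detected, and 32.8 on the knockout-labelled array, after scaling 1.40-fold above the wild-type floor of 24.6. The difference was 0.69 ± 0.40, and the median pixel intensities were 68 (wild-type) and 72 (knockout-labelled). The refitted normexp correction gave a difference of 0.21 and the unrefitted one -0.89. Of the 14 genes of the BMP and endoglin pathway, 11 were measured on both arrays, 8 higher and 3 lower, and all 11 lay within 2-fold with a median of 0.39 (0.20 with the unrefitted correction and 0.26 with the refitted one). Acvrl1 (ALK1), the type I receptor that works with endoglin, had signals of 231 and 352, a difference of 0.67 ± 0.21. Bmp10, one of its ligands, differed by 0.89 ± 0.22, and Gdf2, the other, was detected on neither array. Smad1, a mediator of this signal, was at 0.62 ± 0.23 by its brighter probe, -0.41 with the unrefitted correction, and at -0.30 by the other probe.

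The junction genes Cdh5 and Pecam1 did not follow Lyve1 and Stab2. Cdh5, the most restricted endothelial junction gene of the set, had signals of 273 and 253, a difference of -0.04 ± 0.21 that lay within its scanner error and turned positive, from 0.01 to 0.13, with quantile and loess normalization, the authors' deposited table and centring on the median. Pecam1 had signals of 368 and 259, a difference of -0.44 ± 0.21, between -0.53 and -0.27 over all 10 settings. Both were measured well above background on each array, and neither was higher on the knockout-labelled array in the main scaling. Of 14 junction and adhesion genes, 13 were measured on both arrays, 7 higher and 6 lower, 5 of them at least 2-fold higher, with a median of 0.16. Cldn5, the tight junction claudin of endothelium, had signals of 87.8 and 228 and was 2.72-fold higher. F11r (JAM-A), shared with epithelium, platelets and leukocytes, was 2.67-fold higher, with signals of 228 and 581, and Tjp1, a scaffold of tight junctions, 2.22-fold. Jam3 and Esam also passed 2-fold, at 1.09 and 1.02. These 5 genes lay on the other side from Pecam1. With normexp on all spots 0 of them passed 2-fold, and 2 did with the refitted correction. The 6 lower genes also included Jam2, Mcam, Ctnnd1 and Icam2. Jam2 was dim, with signals of 32 and 16.2, and was 1.89-fold lower, at -0.26 with the refitted correction. Mcam had signals of 44600 and 32900, a difference of -0.37. Ctnnd1 and Icam2 differed by -0.20 and -0.14, within their scanner error.

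Emcn, the sialomucin endomucin of capillary and venous endothelium, was detected on the knockout-labelled array alone. Its signals were 5.24 and 19.5, and the median pixel intensities were 48 and 61, where negative control spots had medians of 41 and 38. Since 19.5 is below the wild-type floor of 24.6, the wild-type array could not have flagged a signal of that size, and no fold is given.

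**Figure D4:**
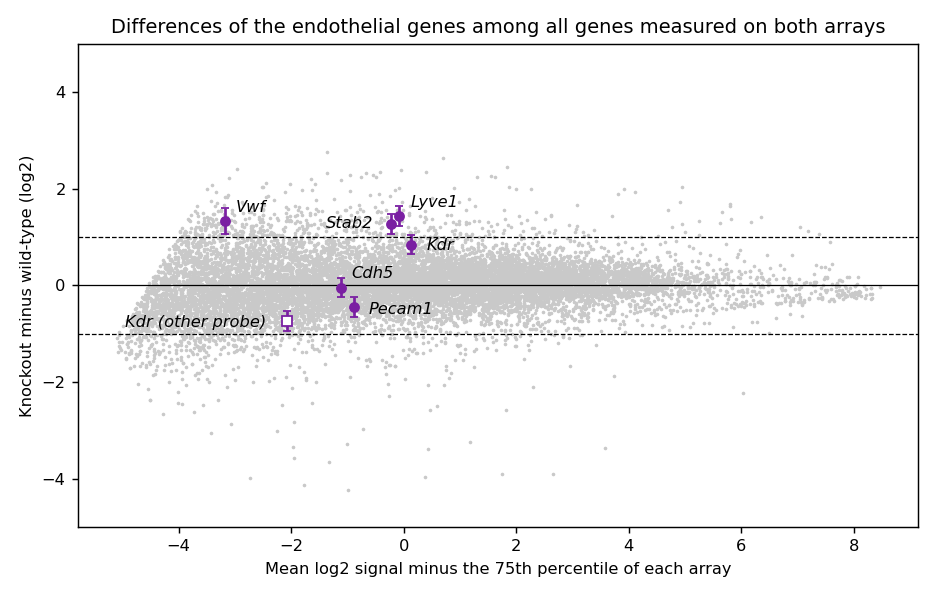
Difference (knockout minus wild-type, log2) against mean scaled log2 signal for the 12958 genes measured on both arrays (grey) and the 7 endothelial probes so measured (purple, with scanner error). Dashed lines mark 2-fold, and the open square is the second Kdr probe. Lyve1, Stab2 and Vwf lie above the upper line, and Vwf lies at the dim end where the grey cloud is widest.

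Endothelial transcription factors were split. Of 14 such genes, 9 were measured on both arrays, 4 higher and 5 lower, with 0 past 2-fold upward, 1 past it downward and a median of -0.14, which was 0.036 with normexp on all spots and 0.035 when arrays were centred on the median. Mef2c, also a B cell factor, had signals of 458 and 209 and was 2.09-fold lower, the one call of this list, which 4 of the 8 settings did not make. Tal1 was 1.89-fold lower and Fli1, which T cells also make, 1.66-fold lower, with Fli1 signals of 6650 and 3830. Erg, the most endothelial of the ETS factors, was detected on neither array, and Sox7, Sox17, Sox18 and Gata2 were on the knockout-labelled array alone. Sox7 and Sox17 had signals of 16.2 and 17.3 there, below the wild-type floor of 24.6. In the Notch list, 5 of 8 genes were measured on both arrays and 0 passed 2-fold, with Notch1, a receptor T cells share, at 0.99 ± 0.20 and Hes1, its target, at -0.64 ± 0.21. Dll4, Notch4 and Hey2, the more endothelial members, were detected on the knockout-labelled array alone. Dll4 was no brighter there, with signals of 13.6 (wild-type) and 12.9 (knockout-labelled), a difference of -0.01. Notch4 had signals of 16.8 and 36.6, and Hey2 had 17.1 and 38.3.

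Further blood endothelial genes were split. Of 22, 16 were measured on both arrays, 10 higher and 6 lower, 5 at least 2-fold higher (Procr, Vcam1, Robo4, Ecscr and Egfl7) and 1 at least 2-fold lower (S1pr1, also a T cell gene, at -0.99 with the refitted correction), with a median of 0.64. That median was 0.32 with the unrefitted correction and 0.49 with the refitted one. Procr, the endothelial protein C receptor, had signals of 467 and 1190 and was 2.67-fold higher. Robo4, a guidance receptor largely restricted to endothelium, had signals of 263 and 626 and was 2.49-fold higher, 1.09 on the log2 scale with the refitted correction. Vcam1, an adhesion molecule that stroma and macrophages also make, was 2.56-fold higher by its brighter probe and at 0.28 by the other. Plvap, another of the 6 lower genes, had signals of 2810 and 1410 and was 1.90-fold lower by its brighter probe. That difference lay between -0.95 and -0.65 over the settings, while the other Plvap probe gave 0.43. Sele, Calcrl, Clec14a, Apln, Edn1 and Cav1 were detected on neither array.

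Over the 11 vessel lists together, 110 genes outside the 10 were matched and 79 were measured on both arrays. Of these, 20 (25.3%) were at least 2-fold higher and 3 (3.8%) at least 2-fold lower, beside 3.97% and 3.63% of all genes, and their median was 0.40. The share higher was between 7.59% and 34.2% over 8 settings, the lowest with the unrefitted normexp correction, where 1.5% of all genes were higher, and 12.7% with the refitted one, where 1.67% were. The unrefitted correction gave 6 higher, 6 lower (10.2% of all genes were lower) and a median of 0.029, and the refitted one 10 higher, 0 lower and a median of 0.33. These lists were drawn up with earlier results of these data known. A further 16 (14.5%) were detected on the knockout-labelled array alone, beside 8.56% of all genes, and 15 on neither. Some of the 16, such as Dll4 and Foxc2, had signals below the wild-type floor of 24.6 on both arrays. Of the 110, 5 also stand in a list of other cells. That count covers only the marker lists used here, and leaves out Fli1, Notch1 and S1pr1, described above as T cell genes too.

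**Figure D5:**
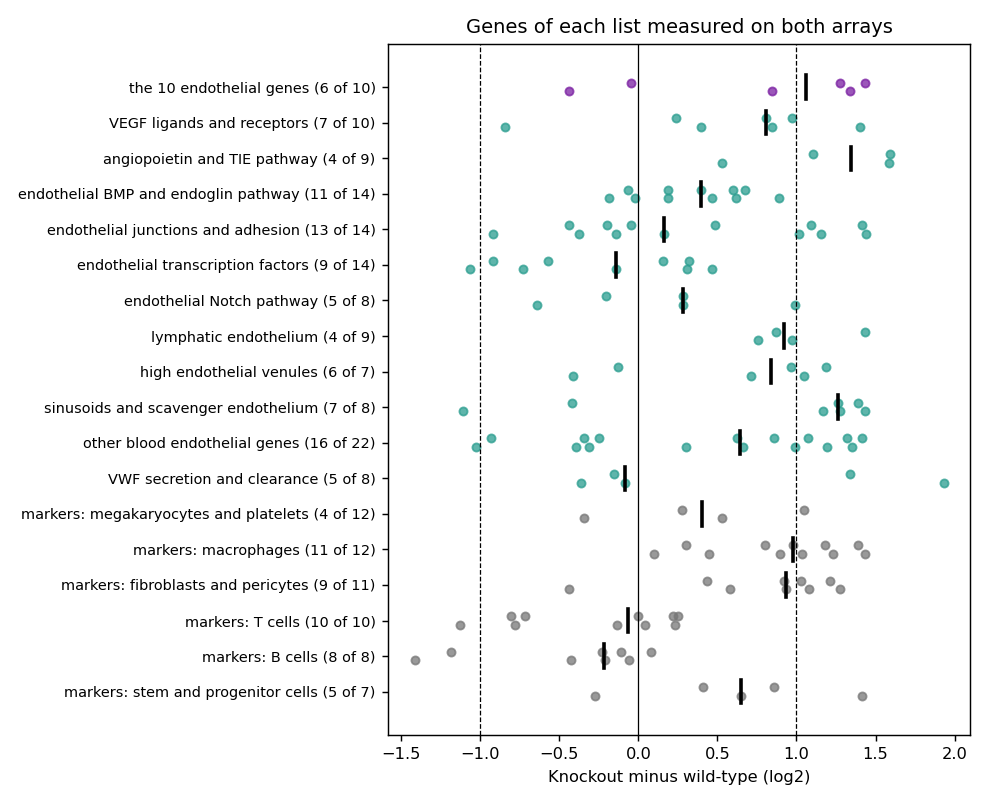
Difference (knockout minus wild-type, log2) of each gene measured on both arrays, by list, with the median as a black bar and the number measured of the number matched in brackets. Purple is the endothelial set, green the other vessel lists, grey the markers of other cells, and dashed lines mark 2-fold. Sinusoid, lymphatic, macrophage and fibroblast genes lie mostly to the right, T and B cell markers around or left of 0.

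Markers of the stromal cells that surround vessels differed in the same direction. Of 11 markers of fibroblasts and pericytes, 9 were measured on both arrays, 8 higher and 1 lower, 4 of them at least 2-fold higher, with a median of 0.94 and summed levels of 11.2 and 20.4. With normexp on all spots Lum, Pdgfra and Acta2 turned to -0.34, -0.27 and -0.05. The 4 higher calls became 2 with that correction and 1 with the refitted one, and the median 0.52 with either. Col1a2, a collagen chain, had signals of 743 and 1720, and Pdgfrb, the pericyte receptor, 151 and 335. Rgs5, a more specific pericyte gene, differed by -0.44, and the pericyte markers Des and Cspg4 were detected on neither array. The 10 T cell markers had a median of -0.07, which turned to 0.19 with normexp on all spots and 0.11 when arrays were centred on the median, with Cd3e 2.18-fold lower and Lck, the brightest, at signals of 25100 and 28200. The 8 B cell markers had a median of -0.22 and summed levels of 189 and 162. Their part in the endothelial values was not tested, and the labels name no cell type other than T cells.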

How the data were processed

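Total RNA of 1 wild-type and 1 knockout culture was labelled with Cy3 and hybridised to 1 Agilent array each. Per the file headers, signals were extracted with Agilent Feature Extraction 11.0.1.1, and both arrays share a slide and a scan. The deposited processed signal is an intensity, background-subtracted within the array, per the file headers. The authors' deposited value table holds log2 values, whose normalization and centring are not given in the sources used here. Both of its columns have a median of 5.36, and it is used as an alternative.

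From these the log2 processed signal minus each array's 75th percentile over gene spots was computed, without control spots and spots with outlier flags, and averaged over spots of a probe. Probe accessions were matched without versions to RefSeq in GRCm38.p6 (27220 of 39411 probes). The array design names mm9, so no probe coordinates are given. A gene is represented by its brightest probe above background on at least 1 array. The scanner error of a difference combines both arrays' relative signal errors. Where 1 array alone detected a probe, its scaled signal was set against the larger of 2 values of the other array, the dimmest detected signal and the probe's own. This gives a lower bound in the processed signal. That bound leaves out the scanner error and need not hold under other background corrections. Named genes are the members, Sirt1, Cd4 and genes drawn from the 3 largest differences in each list and the brightest cell type markers. Not all of the latter are given values, and Marco, Dcn and Ms4a1 are among those left out. Cd4 differed by -0.13 ± 0.20. Other names were chosen after their values were seen. Members and lists were chosen with earlier results of these data known. Alternatives used limma 3.58.1 (normexp with offset 50 on the median intensity, since no mean is held, quantile and loess). The number of arrays limits precision. The code that counts genes past 2-fold was tested on simulated data with known differences, which checks the code and not the differences between the cultures.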

Additional observations from a re-analysis of the deposited data

How the results depend on the processing

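The count of 3 endothelial genes at least 2-fold higher lay between 3 and 4 with centring on the median, quantile and loess normalization, the deposited value table, the other percentile, the mean over probes and outlier spots kept. No member spot carried an outlier flag, so keeping such spots could not change the count, and the mean over probes could move only Kdr. The count was 1 with normexp on all spots (Vwf at -0.27), 2 with the refitted normexp and 0 at a 3-fold threshold. The count lower was 0 throughout. The median of 1.06 was 0.24 with normexp, 0.70 with normexp refitted, 0.66 with the mean over probes, which averages the opposed Kdr probes, and 0.77 without a background filter. For normexp the 4 dark wild-type spots account for the shift between its fits. Centring on the median put the median of all genes at 0.18. No paired analysis was possible because each genotype has 1 array. For the same reason no replicate could be left out. Dim signal limits Vwf, Eng, Emcn, Tek and Tie1.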

Other observations

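Genes of high endothelial venules, the vessels through which lymphocytes enter lymph nodes, were measured as well. Of 7, 6 were detected on both arrays, 4 higher and 2 lower, with a median of 0.84 that turned to -0.20 with normexp on all spots. Glycam1, the mucin ligand of L-selectin made by these venules, had signals of 15400 (wild-type) and 30400 (knockout-labelled), 2.07-fold higher and at least 2-fold higher in the 8 settings run on it. Chst4, the sulfotransferase that completes that ligand, had signals of 42.9 and 93.3, a difference of 1.19 ± 0.28 (0.55 with the refitted normexp and -0.34 with the unrefitted one). Fut7, a fucosyltransferase of the same ligand that activated T cells also make, was 1.95-fold higher. Madcam1, the adhesion molecule of gut lymphoid venules, differed by -0.13 (0.04 after centring on the median), with signals of 496 and 433.

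Markers of stem and progenitor cells, some of which endothelium shares, had 5 of 7 genes measured on both arrays, 4 higher and 1 lower, with a median of 0.65 that turned to -0.15 with normexp on all spots. Cd34 had signals of 648 and 1120 and Kit had 98.2 and 147, with Kit turning to -0.18 and Meis1 to -0.20 with that correction. Mecom was detected on neither array.

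The authors' deposited value table holds entries that the scanner signal does not bear out. On its log2 scale the knockout column reaches 46.7, where the highest scanner signal of that array is 17.6. Set against log2 of the scanner signal, with the column's median offset removed, 32 of 39411 probes in the knockout column and 12 in the wild-type column lay more than 2 away. Of the genes listed here 1 was among them, Gpihbp1, at 10.8 in the deposited table and -0.31 from the scanner signal, and it is 1 of the 21 vessel genes that the deposited table places at least 2-fold higher. The 7 member probes detected on both arrays lay within 0.085.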
